A study of Mus musculus with 2 samples.

Results

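The nuclear genes for subunits of the mitochondrial oxidative phosphorylation system were taken from RNA-seq of neonatal mouse epidermis. A row belonged when its symbol started with Ndufa, Ndufb, Ndufc, Ndufs or Ndufv and a digit, with Uqcr, with Cox4 to Cox8 or with Atp5, or was Sdha, Sdhb, Sdhc, Sdhd or Cyc1. This gave 85 of the 23183 gene rows, of which 35 belonged to complex I, 4 to complex II, 9 to complex III, 20 to complex IV and 17 to complex V. Of these, 83 were measured, which here means a mean of at least 1 FPKM over both libraries. FPKM is the number of fragments per kilobase of transcript, scaled to the library's fragment total, so levels can be set side by side between genes of different length. The length in these values was fitted as the transcript length less 208 bases in L19M and 204 bases in WT. Levels of short transcripts depend most on that term. The remaining rows, Cox7b2 and Cox8c, whose protein isoforms are known from testis, were at 0 FPKM in both libraries. A count of 0 allows Cox7b2 up to 0.468 FPKM in the L19M library and 0.627 FPKM in the WT library, and Cox8c up to 0.585 FPKM in L19M and 0.781 FPKM in WT, at the limit of 3 fragments.

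The first library came from C57BL/6 animals homozygous for the L19M allele of Foxn1 and the other from C57BL/6 WT animals, with 1 library per genotype. Foxn1 is a forkhead transcription factor of skin keratinocytes and thymic epithelium, and the study asked how keratinocytes differ between these genotypes. How many animals each library pooled, and their age and sex, are not given in these sources. With no replicate there is no test between the genotypes, and every difference compares these libraries alone.

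Oxidative phosphorylation couples the oxidation of NADH and succinate to the synthesis of ATP at the inner mitochondrial membrane. Complexes I and II pass electrons to ubiquinone, complex III passes them on to cytochrome c, and complex IV hands them to oxygen, while complexes I, III and IV pump protons that return through complex V, the ATP synthase. Most subunits are encoded in the nucleus and imported, and a few hydrophobic core subunits, not analysed here, are encoded in mitochondrial DNA. In the epidermis the living keratinocyte layers hold mitochondria, which are removed as cells cornify.

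The depth estimated from the steps of low FPKM values was 19143142 fragments in L19M and 14114207 in WT, and 16670 genes in L19M and 16481 genes in WT were above 0. Of 7 keratinocyte markers 6 had a row, and all 6 were above 50 FPKM in both libraries. Among them were the basal keratins Krt5 and Krt14. Krt5 had 3380 FPKM in L19M and 3262 FPKM in WT, and Krt14 had 3850 FPKM in L19M and 3408 FPKM in WT. In L19M 4 of the 6 were higher than in WT, among them Trp63 at 82.5 FPKM in L19M and 55.5 FPKM in WT. The other 2 were lower in L19M. Krt10 had 8193 FPKM in L19M and 9337 FPKM in WT, and Lor had 7416 FPKM in L19M and 9384 FPKM in WT. Foxn1 itself had 5.44 FPKM in L19M and 3.74 FPKM in WT, a level that does not check a coding allele. RNA of other tissues was present at lower levels. The 9 measured of 10 striated muscle markers summed to 303 FPKM in L19M and 269 FPKM in WT, and the 6 measured of 7 adipocyte markers to 308 FPKM in L19M and 398.7 FPKM in WT. Of the adipocyte sums, Fabp4 alone held 252 FPKM in L19M and 307 FPKM in WT.

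Respiratory subunit genes were slightly lower in the L19M library, across all complexes and mostly by a small step. Of the 83 measured members, 67 had a log2 ratio of L19M over WT below 0 and 16 above 0, after 1 FPKM was added to each value. Over all 11841 measured genes 49.2% were below 0 and 50.8% above. The members' median log2 ratio was -0.20, with quartiles of -0.28 and -0.04, while that of all measured genes was 0.0049, with quartiles of -0.17 and 0.16. In summed FPKM the members held 19655 in L19M and 22853 in WT, a ratio of 0.860, against 0.960 for all measured genes. The members' sums were 2.42% of the FPKM total in L19M and 2.70% in WT. No member was at least 2-fold higher in L19M, against 0.532% of all measured genes, and 1 member, Ndufs5, was at least 2-fold lower, against 1.71% of all measured genes. In whole-tissue RNA, fewer cells of a type and less RNA per cell cannot be told apart. All 6 measured adipocyte markers were also below 0, with a median of -0.58, among them Adipoq at 7.95 FPKM in L19M and 15.5 FPKM in WT, while Lep, the seventh, was listed at 0 FPKM in L19M and 0.0926 FPKM in WT. The part of fat cell RNA in the members' values was not tested.

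Part of that step was shared by other genes with short transcripts. The members' transcripts had a median length of 711 bases, and those of all measured genes 2762 bases. Across all 11841 measured genes the log2 ratio was related to length with a Spearman's rho of 0.197, a description over genes that share the same pair of libraries. Once the median of other genes of like length, in 50 bins, was subtracted, the members' median was -0.08 and 55 of 83 were below 0. The step beyond that of other genes was therefore smaller than the unadjusted median, and the plot of log2 ratio against length shows both.

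**Figure D1:**
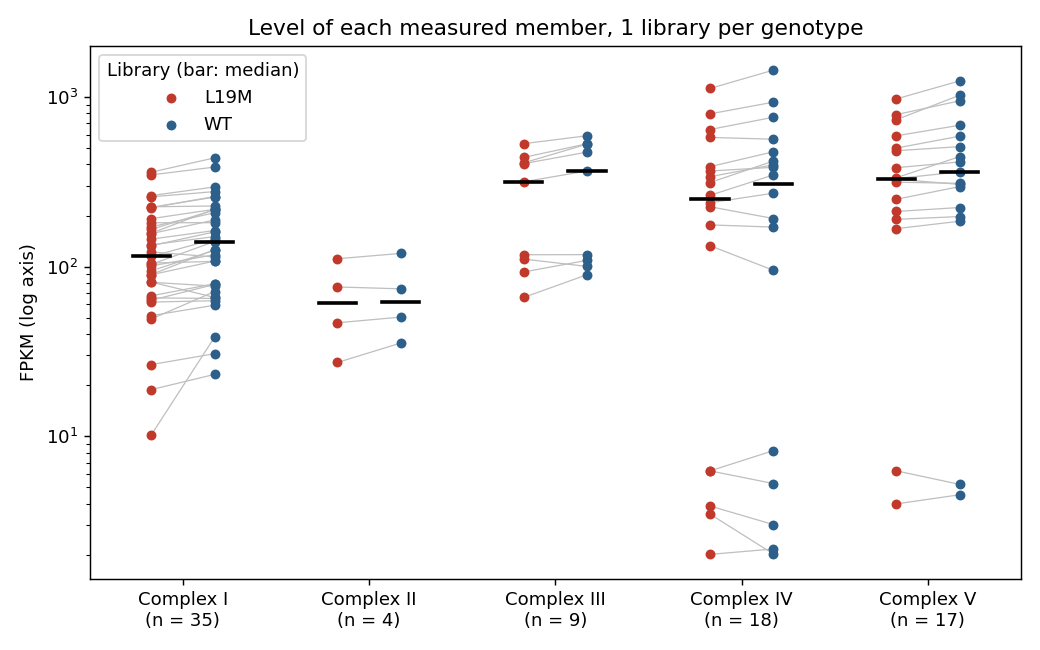
FPKM (log axis) of each measured member in the L19M library (left, red) and the WT library (right, blue) of each pair, by complex. Grey lines join the same gene and black bars are medians over genes. Medians were lower in L19M in each complex, with complex IV at 250 FPKM in L19M and 309 FPKM in WT, and the order of the genes was nearly the same in both libraries.

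**Figure D2:**
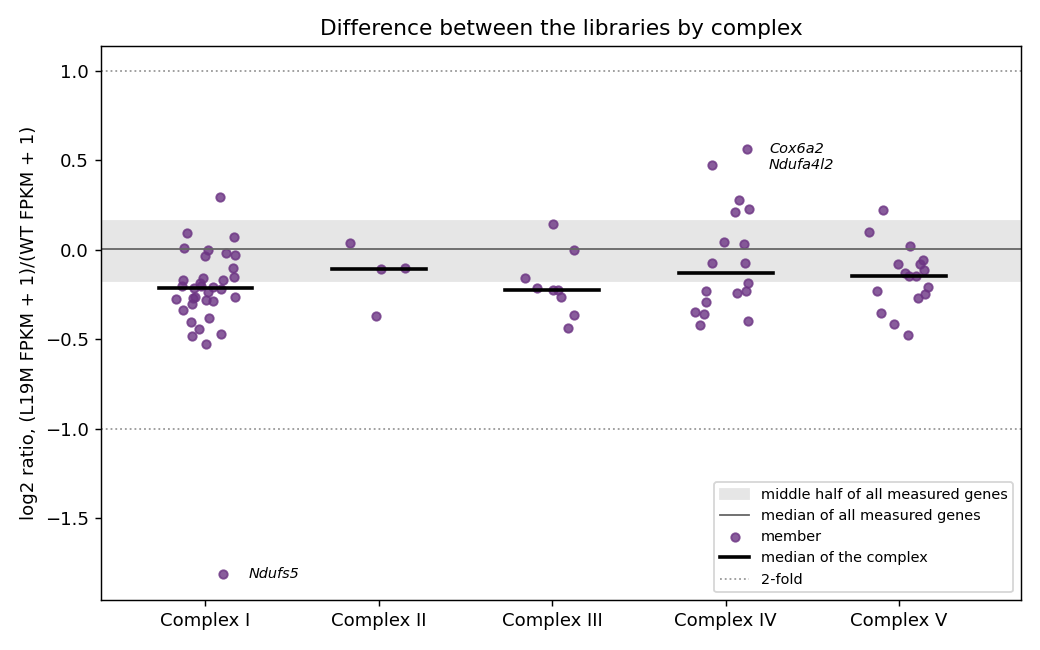
Log2 ratio of L19M over WT for each measured member, by complex, with the median of each complex as a black bar. The grey band runs between the quartiles of all measured genes and dotted lines mark a 2-fold difference. Ndufs5 is the only member past a line, and Cox6a2 and Ndufa4l2 have the largest positive values.

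Complex I, the NADH dehydrogenase, had the most members and was lower in L19M in nearly all of them. Of its 35 genes, 31 had a log2 ratio below 0, and the median was -0.21, or -0.11 less the median of genes of like length. The sum over the complex was 4731 FPKM in L19M and 5475 FPKM in WT, a ratio of 0.864. The 7 core subunits, which carry the flavin, the iron-sulfur clusters and the quinone site, ranged from 26.5 to 105 FPKM in L19M and from 30.7 to 125 FPKM in WT. Their median log2 ratio was -0.21, with 5 of 7 below 0. The 28 accessory subunits, which surround the core and are needed for assembly and stability, had a median of -0.24, with 26 of 28 below 0.

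Among the core subunits Ndufs8, a carrier of iron-sulfur clusters, had the most negative log2 ratio, -0.40. It had 94.4 FPKM in L19M and 125 FPKM in WT, a ratio of 0.755 with a 95% counting interval running from 0.711 to 0.802. Ndufs7, which holds the last iron-sulfur cluster of the electron path, had 67.3 FPKM in L19M and 79.3 FPKM in WT. Both were lower in L19M by more than counting error, and these intervals leave out variation among animals. At the NADH end, the flavin-binding Ndufv1 had 65.5 FPKM in L19M and 64.96 FPKM in WT, and its partner Ndufv2 had 101 FPKM in L19M and 118 FPKM in WT. The largest core subunit, Ndufs1, was the least abundant of the core, at 26.5 FPKM in L19M and 30.7 FPKM in WT. Ndufs3, of the same arm, had 105 FPKM in L19M and 107 FPKM in WT.

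Accessory subunits of the matrix arm were all below 0. Ndufv3 had 89.8 FPKM in L19M and 126 FPKM in WT, a ratio of 0.713 (interval 0.674 to 0.755). Ndufa2 had 157 FPKM in L19M and 218 FPKM in WT, and Ndufa5 had 103 FPKM in L19M and 141 FPKM in WT. These were all lower in L19M by more than counting error. The assembly-critical subunits of the NADH-binding module, Ndufs4 and Ndufs6, lay closer to equality. Ndufs4 had 51.4 FPKM in L19M and 59.3 FPKM in WT, and Ndufs6 had 223 FPKM in L19M and 257 FPKM in WT. Ndufa12, Ndufa9, Ndufa6 and Ndufa7 of the same arm had log2 ratios of -0.27, -0.30, -0.21 and -0.10.

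In the membrane arm the most abundant subunits differed by small steps. Ndufb4 led complex I, with 360 FPKM in L19M and 437 FPKM in WT, a ratio of 0.824 (interval 0.768 to 0.883). Ndufa3 had 347 FPKM in L19M and 386 FPKM in WT, and Ndufb9, which carries an LYR motif, had 262 FPKM in L19M and 295 FPKM in WT. All 3 were lower in L19M by their counting intervals, although Ndufa3 came to 0.0085 on the log2 scale once genes of like length were subtracted. Ndufb6 (122 FPKM in L19M and 114 FPKM in WT) and the twin CX9C protein Ndufa8 (80.8 FPKM in L19M and 76.8 FPKM in WT) had positive log2 ratios of 0.10 and 0.07. Their intervals of 0.956 to 1.20 and 0.945 to 1.17 include equality. Ndufb8 (225 FPKM in L19M and 228 FPKM in WT) and Ndufb10 (181 FPKM in L19M and 182 FPKM in WT) were close to equal. Ndufa13, also known as Grim-19 for its role in interferon and retinoic acid induced cell death, had the most negative log2 ratio of complex I after Ndufs5. It had 49.1 FPKM in L19M and 71.3 FPKM in WT, a ratio of 0.689 (interval 0.631 to 0.753). Of the remaining membrane-arm genes, Ndufb2, Ndufb3 and Ndufb5 had log2 ratios of -0.38, -0.34 and -0.27, and Ndufb7 and Ndufb11 of -0.16 and -0.18. Ndufc1 and Ndufc2 lay at -0.26 and -0.27, and Ndufa1, Ndufa10 and Ndufa11 at -0.17, -0.03 and -0.28. Tssk6 overlaps Ndufa13 on the other strand, and the sources used here do not say whether counting used strand.

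Ndufs5, a small membrane-arm subunit with a twin CX9C fold, was the 1 member past 2-fold. It had 10.2 FPKM in L19M and 38.4 FPKM in WT, from 44 estimated fragments in L19M and 125 in WT. The FPKM ratio was 0.265 (interval 0.183 to 0.375), and the log2 ratio -1.82. The authors' deposited table gives a fold of 0.286. Its level was the lowest of complex I in L19M and among the lowest in WT, although Ndufb4 and Ndufa3 of the same arm were above 300 FPKM in both libraries. The gene model behind the value has limits. The row (Entrez 595136) gives chr4:123712710-123716081 on the minus strand (mm10) with a transcript of 435 bases, while the GENCODE transcript with its RefSeq accession has 525 bases. The RefSeq start lies 2105 bases upstream of the row's start, and no other member with a promoter window was over 1000 bases from its RefSeq start. A processed pseudogene on another chromosome, BC002163, matches the transcript at 99.4% identity over 319 bases and had 2.16 FPKM in both libraries. The sources used here do not say how fragments shared by such copies were assigned, so the Ndufs5 value is uncertain. The RefSeq promoter of Ndufs5 holds 1 match to the letters of the NRF1 motif. It is shown here as the 200 bases before the RefSeq start (GRCm38.p6, chr4:123718187-123718386, minus strand, written from 5′ to 3′), with the match, whose first base lies 98 bases before the start, in capitals.

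Ndufs5: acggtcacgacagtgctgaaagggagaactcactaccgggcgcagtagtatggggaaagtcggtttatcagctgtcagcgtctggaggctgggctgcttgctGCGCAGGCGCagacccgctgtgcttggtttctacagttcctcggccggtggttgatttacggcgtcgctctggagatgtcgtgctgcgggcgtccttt

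Complex II, succinate dehydrogenase, which also serves the citric acid cycle, differed least in its sum. It held 261 FPKM in L19M and 280 FPKM in WT, a ratio of 0.934, beside 0.960 for all measured genes. The median log2 ratio of complex II was -0.11, or -0.015 less the median of genes of like length. Its 4 genes are all nuclear. The flavoprotein Sdha was lower in L19M, at 27.3 FPKM in L19M and 35.5 FPKM in WT, a ratio of 0.768 (interval 0.712 to 0.829). The iron-sulfur subunit Sdhb had 111 FPKM in L19M and 120 FPKM in WT. The membrane anchors lay near equality, with Sdhc at 75.9 FPKM in L19M and 74.0 FPKM in WT, and Sdhd at 46.7 FPKM in L19M and 50.4 FPKM in WT. The counting intervals of both anchors include equality.

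Complex III, the cytochrome bc1 complex, had 8 of 9 genes below 0 and a median of -0.22, which was -0.064 less the median of genes of like length. Its sum was 2487 FPKM in L19M and 2902 FPKM in WT, a ratio of 0.857. The 5 small accessory subunits were all below 0, in a narrow range. The hinge protein Uqcrh had 530 FPKM in L19M and 590 FPKM in WT, and Uqcr11 had 440 FPKM in L19M and 529 FPKM in WT. Uqcrq, the ubiquinone-binding subunit, had 409 FPKM in L19M and 527 FPKM in WT, a ratio of 0.776 (interval 0.731 to 0.823). The other two, Uqcrb and Uqcr10, had log2 ratios of -0.22 and -0.21.

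The large subunits of complex III spread more widely. The core protein Uqcrc2 was lower in L19M, at 65.8 FPKM in L19M and 89.7 FPKM in WT, with a ratio of 0.734 and an interval of 0.691 to 0.781. Uqcrc1, which pairs with it in the same heterodimer, had 118 FPKM in both libraries. The Rieske iron-sulfur protein Uqcrfs1 was the 1 member of the complex above 0, at 111 FPKM in L19M and 100.3 FPKM in WT, with a ratio of 1.10 and an interval of 1.04 to 1.18. Cytochrome c1, from Cyc1, had 93.1 FPKM in L19M and 109 FPKM in WT. The 3 catalytic and core genes named here besides Uqcrc1 thus lay on both sides of equality.

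Complex IV, cytochrome c oxidase, was counted with Ndufa4 and Ndufa4l2, since Ndufa4 protein was found to be a subunit of complex IV. Its 18 measured genes had 11 values below 0, a median of -0.13 (-0.0098 less the median of genes of like length), and a sum of 5598 FPKM in L19M and 6462 FPKM in WT, a ratio of 0.866. The 11 subunits made in most tissues had a median of -0.23, with 9 below 0. The 6 measured isoforms of restricted tissues had 2 values below 0 and 4 above, with a median of 0.25, and mostly low levels. Ndufa4 was the most abundant of all 85 members. It (Entrez 17992, minus strand, chr6:11900373-11907446, mm10) had 1121 FPKM in L19M and 1437 FPKM in WT, a ratio of 0.780 (interval 0.752 to 0.809). Cox6c had 794 FPKM in L19M and 931 FPKM in WT, and Cox6b1, which faces the intermembrane space, had 642 FPKM in L19M and 758 FPKM in WT. These most abundant members were lower in L19M.

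Not all widely made subunits were. Cox4i1, which is known to bind ATP as a regulator of the enzyme, had 577 FPKM in L19M and 563 FPKM in WT, and its interval of 0.987 to 1.06 includes equality. Cox5a, which binds Cox4i1, had 176 FPKM in L19M and 171 FPKM in WT. Cox6a1 had 366 FPKM in L19M and 385 FPKM in WT. The zinc-binding Cox5b, by contrast, had 339 FPKM in L19M and 398 FPKM in WT. Cox7a2 (263 FPKM in L19M and 347 FPKM in WT) and Cox8a (313 FPKM in L19M and 418 FPKM in WT) had the most negative log2 ratios of the complex, -0.40 and -0.42. Cox7b had 238 FPKM in L19M and 271 FPKM in WT. Cox7c had 388 FPKM in L19M and 475 FPKM in WT, and has a near-identical copy, Gm10012, listed at 0.313 FPKM in L19M and 0 FPKM in WT.

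Most complex IV isoform pairs were almost wholly of the widely made form in both libraries. Cox4i1 was 286 times as abundant as Cox4i2 in L19M and 259 times in WT, where Cox4i2 is the isoform known from lung and hypoxic cells. Cox6a1 was 105 times as abundant as the striated muscle isoform Cox6a2 in L19M and 189.5 times in WT. For the muscle and brown fat isoforms, Cox7a2 was 67.6 times as abundant as Cox7a1 in L19M and 115 times in WT, and Cox8a was 49.9 times as abundant as Cox8b in L19M and 79.3 times in WT. Cox6b1 was 103 times as abundant as the testis isoform Cox6b2 in L19M and 92.0 times in WT. The ratios were thus lower in L19M in the 3 pairs with a muscle isoform.

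The muscle isoforms rested on few fragments. Cox6a2 had 3.49 FPKM in L19M and 2.03 FPKM in WT, from 30 estimated fragments in L19M and 13 in WT, a ratio of 1.72 (interval 0.869 to 3.59). Cox7a1 had 3.89 FPKM in L19M and 3.03 FPKM in WT, and Cox8b had 6.27 FPKM in L19M and 5.28 FPKM in WT. Each of these intervals includes equality, so no difference was detectable at this depth. Of 9 measured striated muscle markers 7 were above 0 and 2, Mylpf and Tnnc2, below, with a median log2 ratio of 0.29. With 1 FPKM added, the 1 marker at least 2-fold higher in L19M was Actc1, the cardiac actin of fetal muscle. Actc1 had 11.1 FPKM in L19M and 3.70 FPKM in WT. Myh3 had 1.75 FPKM in L19M and 0.647 FPKM in WT, past 2-fold before 1 FPKM was added, and a log2 ratio of 0.74 after it. Of 6 genes listed as brown adipocyte markers 2 were measured, and both were lower in L19M. Which cells of the samples made their RNA was not tested, so they are not read here as a measure of brown fat. Cidea had 5.57 FPKM in L19M and 14.8 FPKM in WT, and Elovl3 had 2.50 FPKM in L19M and 13.8 FPKM in WT. The other 4 were under the floor. Among these 4, Ucp1, the uncoupling protein that defines brown fat, had 0.327 FPKM in L19M and 0.344 FPKM in WT. The part of muscle or fat RNA in these values was not tested.

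The exception among the isoforms was Ndufa4l2, an isoform of Ndufa4 known as a target of the hypoxia-inducible factor HIF1. Ndufa4l2 (Entrez 407790, plus strand, chr10:127514939-127517156, mm10) had 133 FPKM in L19M and 95.2 FPKM in WT. The ratio was 1.40 (interval 1.29 to 1.51), and the log2 ratio 0.48, while that of Ndufa4 was -0.36. The share of Ndufa4l2 in the sum of both genes was 10.6% in L19M and 6.21% in WT, the largest shift among the pairs of subunit isoforms of complex IV. Shmt2 overlaps Ndufa4l2 on the other strand. Cox7a2l, whose product is not a catalytic subunit, also had a positive value. It had 225 FPKM in L19M and 192 FPKM in WT, a ratio of 1.17 (interval 1.12 to 1.23).

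**Figure D3:**
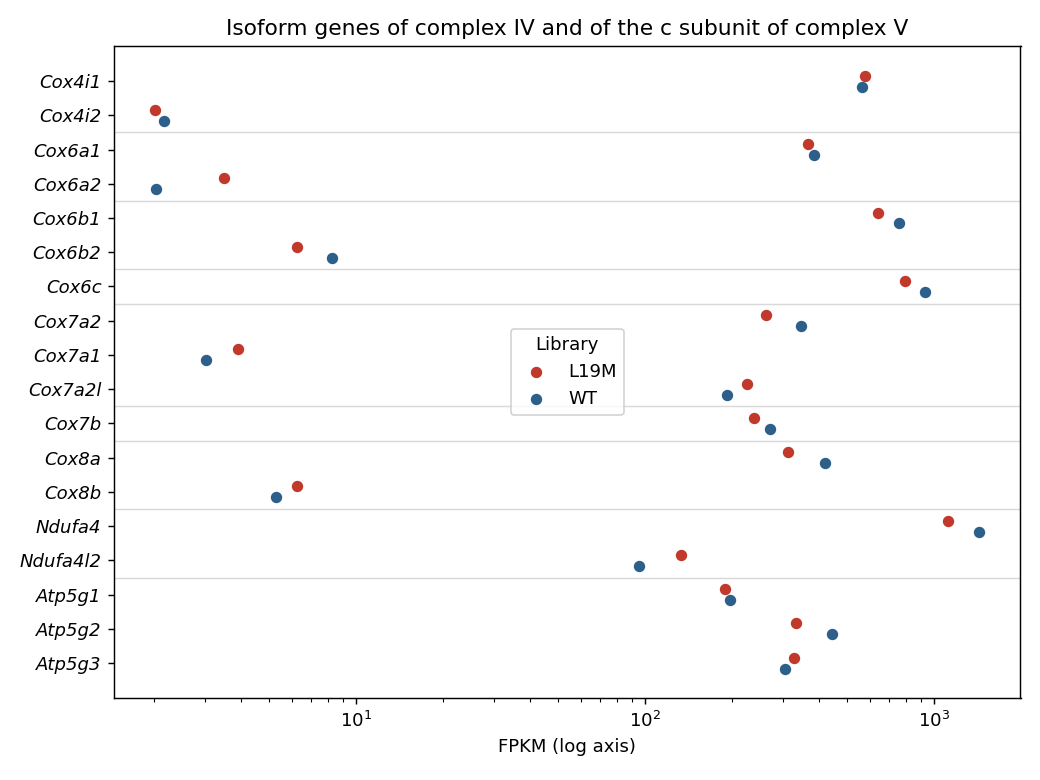
FPKM (log axis) of the genes of each isoform set of complex IV, of the single genes Cox6c and Cox7b, and of the c subunit of complex V, with the L19M library in red above the WT library in blue. The muscle, testis and lung isoforms lie below 10 FPKM in both libraries, and Ndufa4l2 is the 1 restricted isoform near 100 FPKM, at 133 FPKM in L19M and 95.2 FPKM in WT.

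RefSeq promoters were not found for every gene of the Cox4i, Cox6a and Ndufa4 isoform pairs, so those pairs were not compared. The promoters of the pairs shown here differ in CpG content, the feature in capitals in the sequences that follow. They are the 200 bases before the RefSeq start (GRCm38.p6), 5′ to 3′ on the gene's strand, of the pairs Cox8a (chr19:7217617-7217816, minus strand) with Cox8b (chr7:140900447-140900646, minus strand) and Cox7a2 (chr9:79759854-79760053, minus strand) with Cox7a1 (chr7:30183971-30184170, plus strand).

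Cox8a: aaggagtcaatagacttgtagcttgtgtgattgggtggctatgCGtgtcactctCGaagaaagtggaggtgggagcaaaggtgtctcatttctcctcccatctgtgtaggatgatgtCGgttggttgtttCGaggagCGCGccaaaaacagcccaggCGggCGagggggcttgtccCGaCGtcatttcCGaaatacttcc

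Cox8b: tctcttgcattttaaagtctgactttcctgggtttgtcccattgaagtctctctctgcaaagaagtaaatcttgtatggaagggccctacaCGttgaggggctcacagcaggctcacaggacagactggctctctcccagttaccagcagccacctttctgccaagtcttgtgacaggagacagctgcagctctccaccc

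Cox7a2: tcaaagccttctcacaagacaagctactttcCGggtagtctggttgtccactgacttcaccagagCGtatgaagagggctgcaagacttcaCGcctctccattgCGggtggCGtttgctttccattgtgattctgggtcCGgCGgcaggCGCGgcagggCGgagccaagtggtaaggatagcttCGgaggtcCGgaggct

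Cox7a1: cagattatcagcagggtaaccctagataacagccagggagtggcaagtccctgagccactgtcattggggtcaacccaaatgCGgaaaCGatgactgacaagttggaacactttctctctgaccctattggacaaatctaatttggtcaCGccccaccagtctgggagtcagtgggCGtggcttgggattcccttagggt

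These stretches hold 11 CpG in Cox8a and 1 in Cox8b, and 12 in Cox7a2 and 4 in Cox7a1. In each pair the isoform with the higher RNA level in both libraries has the more CpG-rich stretch. Over the full 300-base windows, which run to 50 bases past the start, the same held for Cox6b1 with 17 CpG and Cox6b2 with 10, but not for Cox7b with 5 CpG and the undetected Cox7b2 with 10.

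Complex V, the ATP synthase, had the largest sum, at 6579 FPKM in L19M and 7734 FPKM in WT, a ratio of 0.851. Of its 17 genes 14 were below 0, and the median was -0.14, or -0.078 less the median of genes of like length. The 5 genes of F1, the catalytic head, had a median of -0.08. The catalytic beta subunit Atp5b had 482 FPKM in L19M and 509 FPKM in WT, and the alpha subunit Atp5a1 had 314 FPKM in L19M and 310 FPKM in WT. The central rotor genes of F1 were lower in L19M by small steps. Atp5c1 (gamma) had 211 FPKM in L19M and 223 FPKM in WT, a ratio of 0.948 (interval 0.915 to 0.982). Atp5d (delta) had 330 FPKM in L19M and 362 FPKM in WT, a ratio of 0.913 (interval 0.874 to 0.953). Less the median of genes of like length, their log2 ratios were -0.046 and -0.021. The small Atp5e (epsilon) had 589.5 FPKM in L19M and 681 FPKM in WT.

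The 10 genes of the membrane part Fo and the stalk had a median of -0.24, with 9 below 0. Their transcripts had a median length of 709.5 bases and those of F1 of 1879 bases, and less the median of genes of like length the medians were -0.12 for Fo and the stalk and -0.046 for F1. Atp5j2, the f subunit, had 734 FPKM in L19M and 1022 FPKM in WT, a ratio of 0.718 (interval 0.686 to 0.751). Atp5k, the e subunit, which helps to hold synthase dimers together, had 973 FPKM in L19M and 1241 FPKM in WT, with no interval because its transcript of 292 bases is too short for an estimate of fragments. Atp5l, the g subunit, had 786 FPKM in L19M and 948 FPKM in WT, and 9 near-identical copies among annotated transcripts. All 3 of these small membrane subunits were lower in L19M. The stalk genes Atp5f1 (b), Atp5h (d), Atp5j (F6) and Atp5o (OSCP) had log2 ratios of -0.14, -0.23, -0.25 and -0.11. The rows Atp5s and Atp5sl match the symbol rule but are now named Dmac2l and Dmac2 and are not synthase subunits. Atp5s had 4.002 FPKM in L19M and 4.53 FPKM in WT, and Atp5sl had 6.27 FPKM in L19M and 5.22 FPKM in WT, the lowest levels of the group.

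The c subunit, which forms the proton-driven ring, is encoded by 3 genes whose mature proteins are the same. Atp5g1 had 189.8 FPKM in L19M and 197 FPKM in WT. Atp5g2 had 334 FPKM in L19M and 445 FPKM in WT, a ratio of 0.7503 (interval 0.712 to 0.791). Atp5g3 had 327 FPKM in L19M and 305 FPKM in WT, a ratio of 1.07 (interval 1.02 to 1.12). Together they held 851 FPKM in L19M and 947 FPKM in WT, and Atp5g2 made up 39.2% of the sum in L19M and 47.0% in WT. Atp5g2 has the near-identical copies Gm10175 and Gm10231, so its value is uncertain.

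Transcript length went with level and, in complex V, with the difference between the libraries. Across the 83 measured members, shorter transcripts had higher FPKM, with a Spearman's rho of -0.463 in L19M and -0.485 in WT. The log2 ratio rank correlation with length was 0.238 over the 83 members and 0.735 over the 17 genes of complex V. These points share their library and the length term of FPKM. Within classes of like length, members were set beside all other measured genes. Under 400 bases 2 of 4 members were below 0 with a median of 0.03, and 52 of 78 other genes with a median of -0.13. Among transcripts of 400 to under 500 bases, 12 of 12 members were below 0 with a median of -0.28, and 74 of 105 other genes with a median of -0.16. At 500 to under 600 bases the count was 14 of 15 members with a median of -0.23, and 92 of 133 other genes with a median of -0.17. At 600 to under 800 bases it was 13 of 16 members with a median of -0.14, and 214 of 322 other genes with a median of -0.12. The members' median was thus above that of other genes in the shortest class and below it from 400 to under 800 bases. At 800 to under 1200 bases the members' median of -0.08 was above the -0.11 of other genes. At 1200 to under 2000 bases 14 of 17 members were below 0 with a median of -0.14, and 1270 of 2283 other genes with a median of -0.03. At 2000 to under 5000 bases 3 of 5 members were below 0 with a median of -0.21, and 2819 of 5966 other genes with a median of 0.02.

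**Figure D4:**
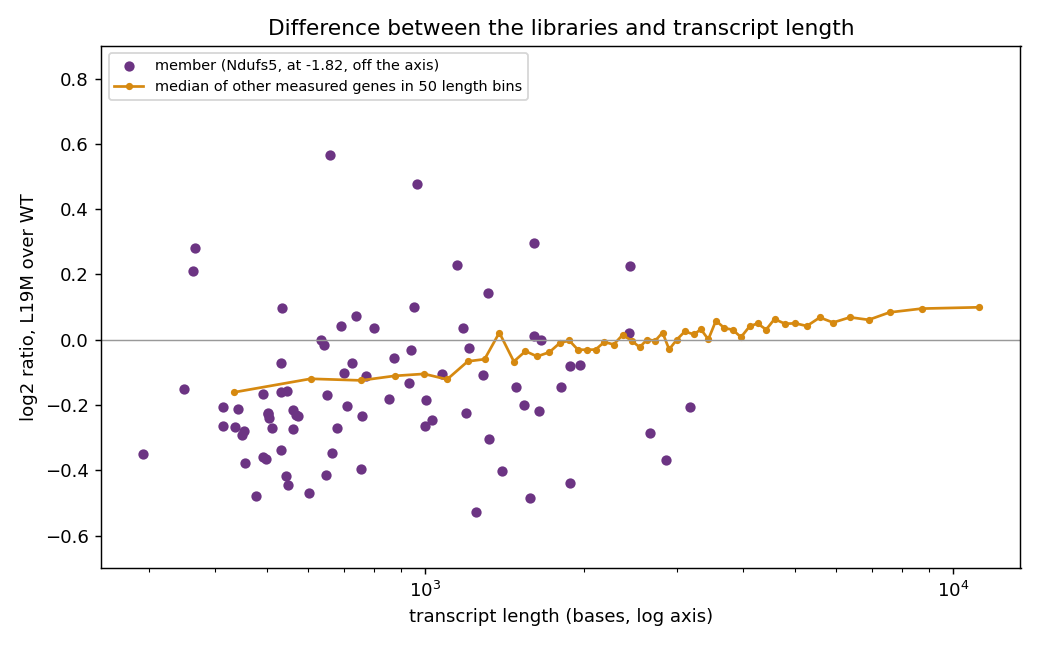
Log2 ratio of L19M over WT against transcript length in bases (log axis) for each measured member (purple), with the median of the other measured genes in 50 length bins (orange line). The line lies near -0.16 for the shortest transcripts and near 0.10 for the longest, and 55 of 83 members lie below the median of their own length bin. Ndufs5, at -1.82, is off the axis.

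Near-identical copies touched 12 members, counted as annotated transcripts of another gene with at least 95% identity over at least 50% of the member's GENCODE transcript. Some GENCODE transcripts were longer than the row's, such as that of Uqcrq with 1521 bases against 499. Copies of the shorter form could be missed there. All 12 were below 0, with a median of -0.25. The 71 measured members without a copy by this count had a median of -0.19, with 55 below 0. The lower values were thus not limited to genes in which a copy was found.

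RefSeq promoter windows, from 250 bases before to 50 after the start, were found for 69 of the 85 members. They were searched on both strands for letters of factors known to serve respiratory genes. The NRF1 letters, GCGC and GCGC parted by NN, read the same on both strands and were in 17 member windows (24.6%), in 13.9% of windows of measured genes and in 6.23% of all 32851 windows. The ETS letters CCGGAAG, bound by GABP among others, were in 15 member windows (21.7%), in 19.1% of windows of measured genes and in 8.86% of all. The YY1 letters AAGATGGC were in 10 member windows (14.5%), in 4.88% of windows of measured genes and in 2.75% of all. The TATA letters TATAAA were in 7 member windows (10.1%), in 8.13% of measured genes and in 13.6% of all. None of the searched letters contains another. At least 1 of the NRF1, ETS or YY1 matches was in 37 member windows (53.6%), in 33.2% of windows of measured genes and in 16.02% of all, and a match is a description of the letters alone. The promoters of Cox6a1 (chr5:115348959-115349158, minus strand) and Atp5h (chr11:115419920-115420119, minus strand), of complexes IV and V, carry both NRF1 and ETS letters, here in capitals in the 200 bases before the start (GRCm38.p6, 5′ to 3′). The ETS matches read in reverse complement, as CTTCCGG.

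Cox6a1: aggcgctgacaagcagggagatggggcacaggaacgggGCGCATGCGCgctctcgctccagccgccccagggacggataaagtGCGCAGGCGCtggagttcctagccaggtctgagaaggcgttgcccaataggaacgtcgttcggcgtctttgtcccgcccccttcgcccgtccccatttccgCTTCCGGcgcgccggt

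Atp5h: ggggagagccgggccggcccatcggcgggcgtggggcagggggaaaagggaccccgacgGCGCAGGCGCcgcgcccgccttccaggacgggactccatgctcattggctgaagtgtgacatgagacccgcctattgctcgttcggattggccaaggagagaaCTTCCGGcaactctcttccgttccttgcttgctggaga

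In Cox6a1 the NRF1 matches begin 162 and 117 bases before the start and the ETS match 16 bases before it. In Atp5h the NRF1 match begins 141 bases before the start and the ETS match 38 bases before it. Cox6a1 had a log2 ratio of -0.07 and Atp5h of -0.23.

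Assembly factors, which build the complexes without staying in them, were mixed. Of 14 measured complex I assembly factors 6 were above 0 and 8 below, with a median of -0.02 that was above 0 under 2 other settings. Ndufaf3 had 4.80 FPKM in L19M and 10.6 FPKM in WT, and Tmem126b had 5.60 FPKM in L19M and 11.3 FPKM in WT. Both were past 2-fold in FPKM. With 1 FPKM added their log2 ratios were -0.998 and -0.90, short of the 2-fold call. Ndufaf6 had the largest positive value, at 6.03 FPKM in L19M and 3.95 FPKM in WT. The 6 complex III assembly factors had a median of -0.25 and 4 below 0, though at a floor of 10 FPKM their median was 0.0034. Among them Uqcc2 had 319 FPKM in L19M and 403 FPKM in WT, and Uqcc3 had 33.3 FPKM in L19M and 26.0 FPKM in WT. Of 23 complex IV assembly factors 8 were above 0 and 15 below, with a median of -0.09. Pet117 was listed at 0 FPKM in L19M and at 4.78 FPKM in WT from 8 estimated fragments. The WT value was 3.47 times the limit of 3 fragments in L19M, 1.37 FPKM, on a transcript of 322 bases. That quotient leaves out the counting error of the WT value, so it is not a lower bound of the difference. Fastkd1, counted in this list although its role in complex IV assembly was not checked, had 2.44 FPKM in L19M and 1.25 FPKM in WT. The 4 complex II factors and the 4 complex V factors had 2 values on each side of 0, with medians of -0.05 and -0.0027 that changed sign with the setting. Sdhaf3 had a log2 ratio of -0.36 and Atpaf2 of 0.59.

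Mitochondrial genes of import, electron carriage, translation and antioxidant defence were mostly below 0, by less than the subunits at the median. Of 27 import and inner membrane genes 22 were below 0, with a median of -0.11. Immt, a scaffold of the cristae, had 38.4 FPKM in L19M and 53.1 FPKM in WT, and Phb2, of the prohibitin ring, had 131 FPKM in L19M and 111 FPKM in WT. Of 17 electron carriers and nucleotide exchangers 12 were below 0, with a median of -0.11. Slc25a3, the phosphate carrier that feeds the ATP synthase, had 223 FPKM in L19M and 186 FPKM in WT, and Coq3, of ubiquinone synthesis, had 4.03 FPKM in L19M and 7.13 FPKM in WT. Among the 77 mitochondrial ribosomal protein genes 52 were below 0, with a median of -0.08 that became 0.0021 once genes of like length were subtracted. Mrps18c was the lowest of that list, at 141 FPKM in L19M and 235 FPKM in WT. The 77 cytosolic ribosomal protein genes, whose median transcript length of 710 bases was close to that of the subunits, had 42 below 0 and a median of -0.03, which became 0.01 when the most abundant genes were left out of the total and 0.09 after subtraction of genes of like length. The 6 mitochondrial antioxidant enzymes had 4 below 0 and a median of -0.08.

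Fuel pathways were mixed, and glycolysis alone of these lists was mostly above 0. Of 19 glycolytic genes 16 were above 0, with a median of 0.12. Aldoc had 9.24 FPKM in L19M and 5.77 FPKM in WT, and Eno1 had 302 FPKM in L19M and 227 FPKM in WT on a row listed with only 144 bases. Ldha, which turns pyruvate into lactate, had 329 FPKM in L19M and 335 FPKM in WT. Of 16 citric acid cycle genes 8 were on each side of 0, with a median of 0.01. The pyruvate dehydrogenase genes Pdhb (46.1 FPKM in L19M and 64.1 FPKM in WT) and Dld (38.0 FPKM in L19M and 52.0 FPKM in WT) were lowest in that list, and Cs, citrate synthase, had 108 FPKM in L19M and 97.9 FPKM in WT. The 14 measured genes of fatty acid oxidation had 7 on each side and a median of -0.01, which was above 0 under 3 other settings. Hadhb had 70.4 FPKM in L19M and 102 FPKM in WT, and Acads had 13.5 FPKM in L19M and 10.02 FPKM in WT.

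Regulators of respiratory genes were not lower as a list. Of 14 entries 12 were measured, with 8 above 0, 4 below and a median of 0.11. Mef2a had 33.3 FPKM in L19M and 26.6 FPKM in WT, and Gabpb1, a subunit of the ETS factor GABP, had 8.64 FPKM in L19M and 9.57 FPKM in WT. The coactivator Ppargc1a, known as a driver of mitochondrial biogenesis, was under the floor, at 0.033 FPKM in L19M from 4 estimated fragments and 0.147 FPKM in WT from 13. Ppargc1b was also under it, at 0.574 FPKM in L19M and 0.819 FPKM in WT.

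**Figure D5:**
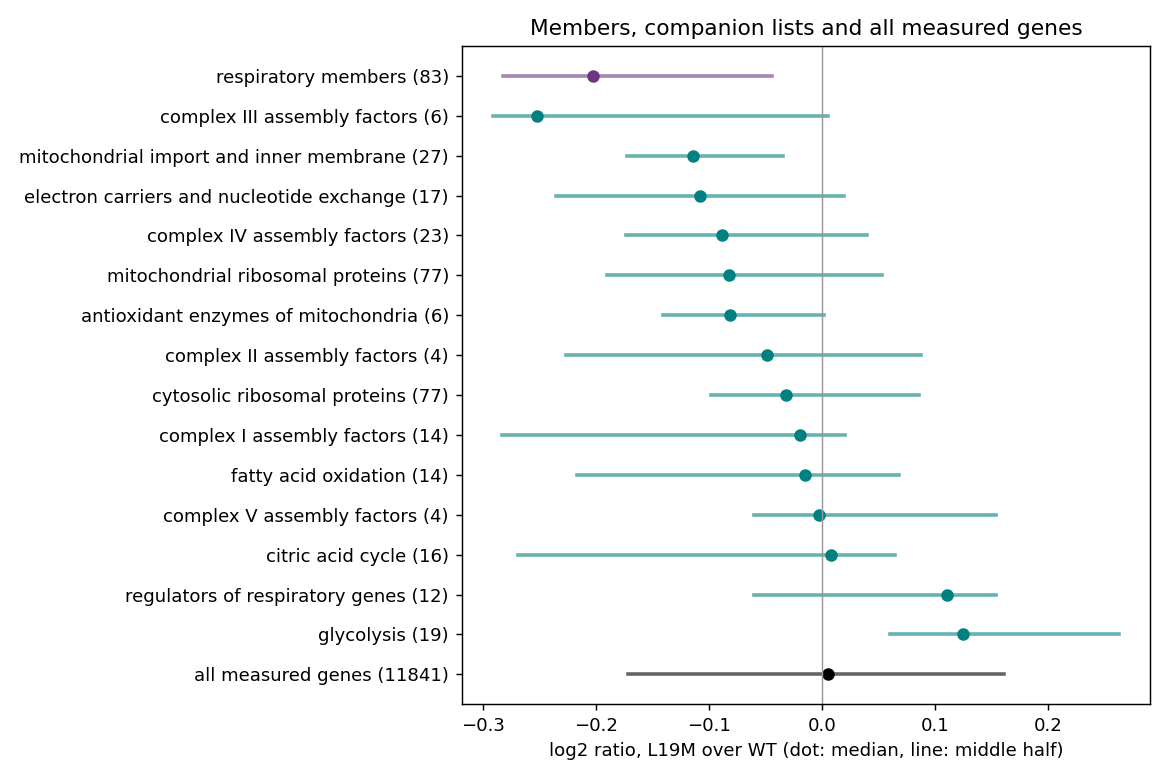
Median log2 ratio of L19M over WT (dots) with lines between the quartiles, for the respiratory members, each companion list and all measured genes, with the number of measured genes in brackets. The members lie at -0.20, glycolysis at 0.12 and all measured genes at 0.0049.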

How the data were processed

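Poly(A)-selected RNA of neonatal mouse epidermis was sequenced in 2 directional libraries, 1 L19M and 1 WT, per the labels' protocols. The authors deposited 1 table of 23183 genes with FPKM per library. The authors also deposited log2 values, quantile-normalized per the file headers, a fold of L19M over WT (a ratio from those values) and transcript lengths. Cufflinks, edgeR and R 3.5.1 are named without a role, per the submitters' processing notes. The sources used here name no aligner and do not say whether strand was used in counting. The information sheet gives mm10 and the submitters' processing notes GRCm39. Coordinates are given as mm10, from 1, as in the deposited table.

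Genotypes were taken from the labels. The log2 ratio was that of (L19M + 1) over (WT + 1), a pseudocount of 1 FPKM, which understates differences of low genes. A gene was measured at a mean of at least 1 FPKM and called at 2-fold. Members and lists were chosen with earlier results of these data known. Named members were those past 2-fold, the 3 of highest mean, of largest and of smallest log2 ratio in each complex, the isoform sets, the rows under the floor and the extremes of each companion list, and further members were named after their values were seen. Values of 1 member named by it are not reported here. With 1 library per genotype no test was run. The plan allowed for counts or FPKM, and the FPKM rule applied. Low FPKM values of transcripts of at least 1000 bases stepped as whole fragments. Fitting a library total and a constant taken from the length gave 19143142 fragments and 208 bases for L19M and 14114207 fragments and 204 bases for WT. Of values of up to 20 fragments, 83.7% in L19M and 84.2% in WT lay within 0.1 of a whole number. Fragments estimated for transcripts of at least 300 bases gave exact (Clopper-Pearson) 95% intervals of FPKM ratios, which cover counting error only. Copies were sought with BLAST+ 2.17.0 among GENCODE M21 transcripts, with 84 of 85 members matched by RefSeq accession. Promoter windows came from RefSeq GRCm38.p6. Python 3.11.15 with pandas 2.3.3, numpy 2.4.6 and scipy 1.17.1 was used, and the procedure was tested on simulated data. Alternatives were a pseudocount of 0.1, no floor or a floor of 10 FPKM, the quantile-normalized values, median centring, a total without the 20 most abundant genes of each library, transcripts of at least 500 bases and established subunits only. Subtracting the median at like length, leaving out members with copies and counting Ndufa4 with complex I were added after seeing the data.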

Additional observations from a re-analysis of the deposited data

How the results depend on the processing

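The members' median log2 ratio stayed below 0 under each alternative run, from -0.21 to -0.16 under those planned, and at -0.19 without members that have near-identical copies. With the total taken without the most abundant genes, 62 of 83 members were below 0, against 43.5% of all measured genes. Less the median of other genes of like length the members' median was -0.078, and that of complex I -0.11. The medians of all 5 complexes stayed below 0 under each setting, but 2 of them were close to 0 less the median at like length. Complex IV was then at -0.0098 with 9 of 18 genes below 0, and complex II at -0.015 with 2 of 4. Of all genes, 120 passed 2-fold upward in L19M with a pseudocount of 0.1 and 30 with a floor of 10 FPKM, and 71 passed it downward with that floor, which tests fewer genes. The count of members at least 2-fold lower was 0 with transcripts of at least 500 bases and 0 without members that have copies, since both leave out Ndufs5. Of 42 named members 6 changed sign in 8 values (Uqcrc1, and less the median at like length also Atp5g1, Cox4i2, Cox6a1, Ndufa3 and Sdhb), and of 18 lists 7 did in 14 values. The causes of these sign changes were not tested. No paired analysis was possible because each genotype has 1 library, and for the same reason no library could be left out. Depth limits the low isoforms and Ndufs5, and no interval holds the spread between animals.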
